A study of Mus musculus with 12 samples.

Results

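The 6 libraries labelled Rnaseh1 knock-out, 3 of leptotene/zygotene (LZ) and 3 of pachytene spermatocytes, were compared with each other across all genes of the deposited expression table. They are 6 of 12 libraries in all, and the other 6 are the same stages labelled wild type (WT). Every library came from C57BL/6 spermatocytes that were isolated by fluorescence-activated sorting and checked for purity. Polyadenylated RNA was made into amplified cDNA and read as 150 bp paired ends. The 4 groups thus differ in the label at Rnaseh1 (knock-out, written KO-labelled below, or WT) and in stage, and they share strain, sorting and library chemistry. The labels do not say how Rnaseh1 was deleted, whether a Cre line was used, how old the mice were or whether the replicates came from separate animals, so the p-values measure the spread between these libraries. Of 23235 genes in the table, 15400 reached a value of 1 in at least 3 of the 12 libraries and were tested.

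In leptotene and zygotene, the first stages of meiotic prophase, chromosomes are cut by programmed DNA breaks and start to pair. By pachytene the synaptonemal complex joins the homologs along their length, crossovers mature, and the X and Y chromosomes, which have little homology, are silenced in the sex body. In the same stage the transcription factor A-MYB (gene Mybl1) turns on a large programme that includes piRNA factors and many genes whose proteins serve in the sperm. RNase H1 cuts RNA that is paired with DNA, as in R-loops, where nascent RNA stays bound to its template.

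The deposited unit is FPKM, a fragment count divided by transcript length and library size, which the authors then put on a common scale with added ERCC control RNA. This is called the spike-in scale here. Each gene was also expressed in ppm (parts per 1000000) of the sum of its library's column, called the share scale. The column sums were 430372, 477243 and 512468 in the KO-labelled LZ libraries and 6702158, 5783381 and 4811567 in the KO-labelled pachytene libraries. No pachytene sum came near an LZ sum, and the ratio of the means was 12.2 (exact permutation p = 0.1, the smallest that 3 against 3 libraries allow). How many cells went into a library is not given in the labels, and the sums cannot be read as RNA per cell. Low genes moved in steps of whole fragments, which gave the worth of 1 fragment in each library relative to KO-labelled LZ replicate 1. It was 1.07 and 1.18 in the other LZ libraries and 8.69, 9.88 and 8.29 in the pachytene libraries. A value of 1 therefore stands on more fragments in LZ than in pachytene. Between 11146 and 11808 genes reached a value of 1 in the LZ libraries and 14220 to 14460 in the pachytene libraries.

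Rnaseh1 RNA was present in every library that carries the knock-out label. It measured 11.0, 18.3 and 14.8 in KO-labelled LZ and 77.3, 68.9 and 94.3 in KO-labelled pachytene libraries on the spike-in scale. The WT libraries ran from 16.1 to 20.5 in LZ, which overlaps the KO-labelled range, and from 51.7 to 56.8 in pachytene, which lies below it on this scale. By share the pachytene ranges overlapped, at 12.7 to 15.9 ppm in WT and 11.5 to 19.6 ppm in KO-labelled libraries. The gene-level value does not show which exons the fragments came from, so it does not tell whether a part of the gene is deleted. Because the label could not be checked by this gene, the libraries are called by their label throughout. Between the stages, Rnaseh1 was called higher on the spike-in scale (log2 change 2.39, adjusted p = 2.01e-07) and lower on the share scale (30.9 ± 6.55 to 14.4 ± 4.55 ppm, SD, n = 3, log2 change -1.08, SE 0.24, adjusted p = 0.00236).

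Of the 4 marker genes of the stages, Piwil1 and Ccna1 rose, Pgk2 rose on the spike-in scale, and Stra8 made a smaller share of the RNA in pachytene. Piwil1 encodes the PIWI protein that binds pachytene piRNAs. It measured 22.7, 23.3 and 31.6 in LZ and 1420, 1436 and 1443 in pachytene libraries. The stages did not overlap, and its share went from 54.4 ± 6.58 to 253 ± 44.2 ppm (SD, n = 3, log2 change 2.19, SE 0.28, adjusted p = 4.27e-05).

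Ccna1, the germline cyclin A1, measured 22.6, 13.0 and 4.99 in LZ and 744, 476 and 197 in pachytene libraries. All pachytene values were higher on that scale, whereas the shares overlapped, since LZ replicate 1 at 52.5 ppm lay above pachytene replicate 3 at 40.9 ppm. The share change of 1.53 (SE 0.52, adjusted p = 0.0224) was not called without LZ replicate 3 (0.91, adjusted p = 0.095), pachytene replicate 1 (1.22, adjusted p = 0.094) or pachytene replicate 2 (1.44, adjusted p = 0.065).

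Pgk2, the testis phosphoglycerate kinase, measured 84.5, 24.8 and 41.3 in LZ and 1235, 785 and 565 in pachytene libraries. Its share did not pass the test (log2 change 0.61, SE 0.37, adjusted p = 0.178), with LZ replicate 1 at 196 ppm above all pachytene libraries. Without that library the share change was 1.13 and called (adjusted p = 0.0019). Stra8, which starts meiosis, measured 40.2, 61.5 and 41.2 in LZ and 0, 32.0 and 34.4 in pachytene libraries. The libraries did not overlap, yet the spike-in change of -2.18 missed the threshold (adjusted p = 0.0501). The change rested on the 0 in pachytene replicate 1, and without that library it was -0.48 (adjusted p = 0.145). It was called without pachytene replicate 2 (-3.01, adjusted p = 0.0109) or replicate 3 (-3.05, adjusted p = 0.0101), which leave the 0 in. The share of Stra8 fell by 4.73 on the log2 scale (SE 0.61, adjusted p = 4.3e-05). Without pachytene replicate 1 the share change was -3.78 and still called (adjusted p = 4.29e-06).

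**Figure D1:**
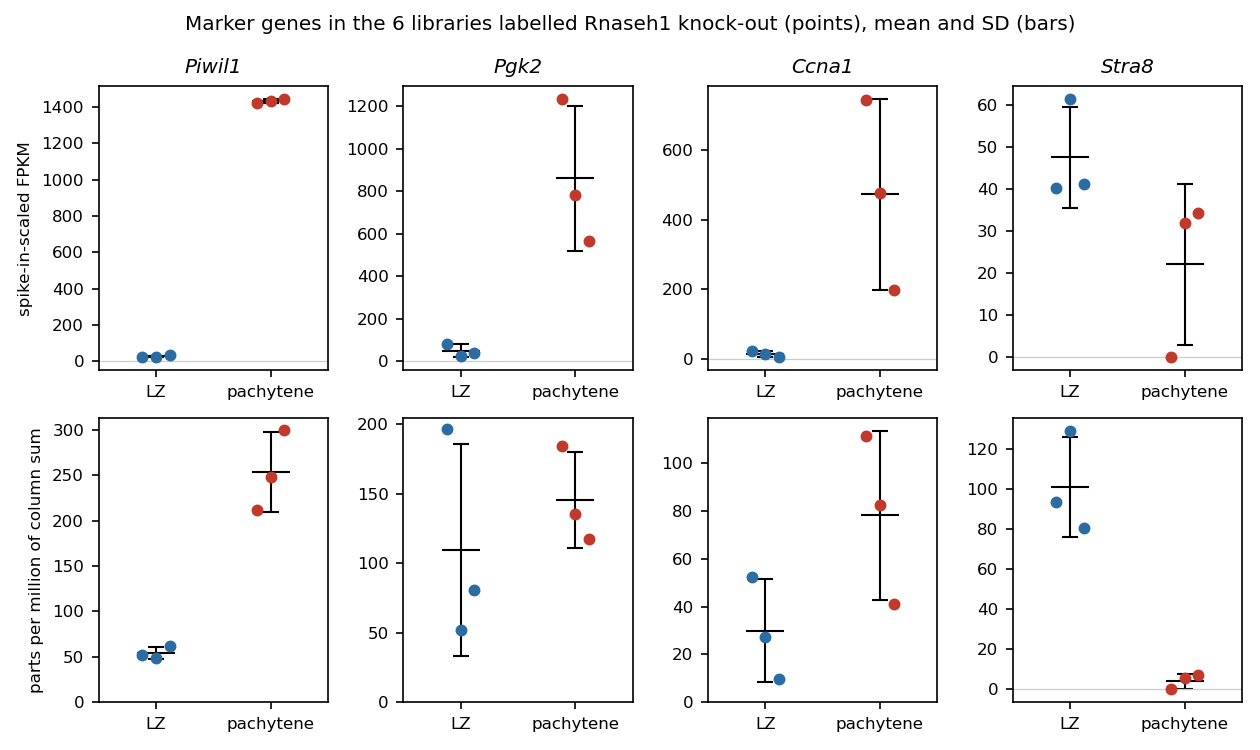
Values of Piwil1, Pgk2, Ccna1 and Stra8 in each of the 6 KO-labelled libraries (points), on the spike-in scale in FPKM (upper row) and as ppm of the column sum (lower row), with mean and SD as bars. Piwil1 sits at 22.7 to 31.6 in LZ and 1420 to 1443 in pachytene, while the shares of Pgk2 and Ccna1 overlap between the stages.

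Because the scales differ by the ratio of the column sums, they called very different numbers of genes. On the spike-in scale 11830 of the 15400 tested genes were higher in pachytene (76.8%) and 436 were lower (2.83%), with a median log2 change of 2.29. On the share scale 2881 were higher (18.7%) and 6333 were lower (41.1%), with a median of -0.42. Every gene with a higher share was also higher on the spike-in scale, and every gene lower on the spike-in scale also had a lower share. The genes called in the same direction on both scales were therefore 2881 higher (18.7%) and 436 lower (2.83%), and 3709 genes were higher on the spike-in scale with a lower share. From here on, "rose" and "fell" are used of single genes only where both scales called the same direction, and the percentages just given are the background for every list.

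**Figure D2:**
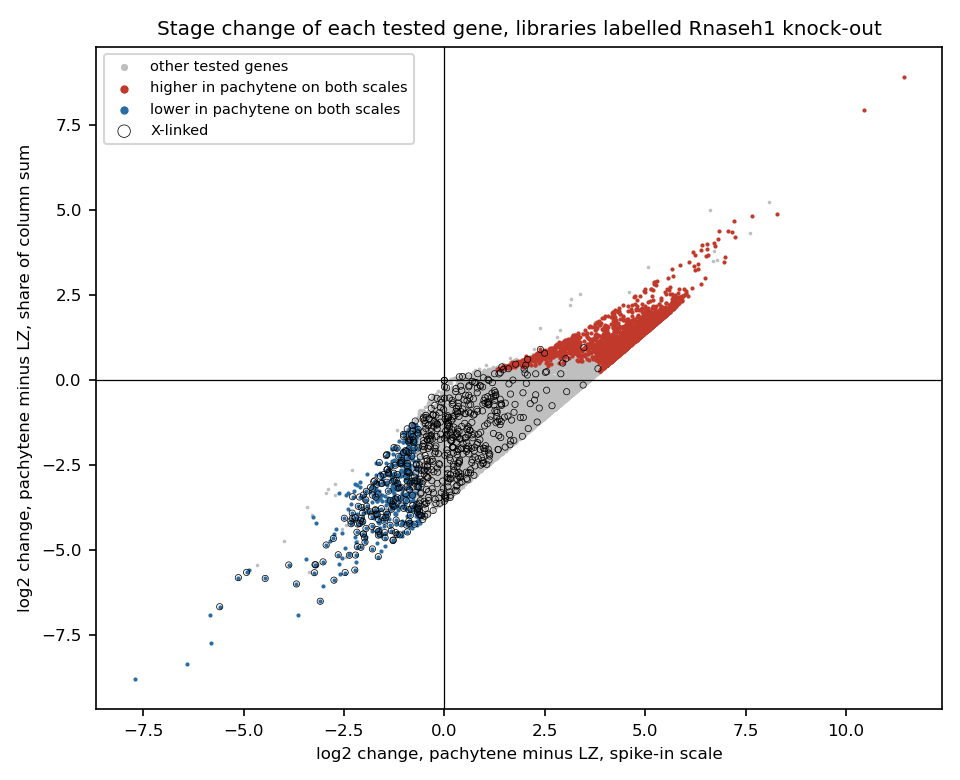
Log2 change from LZ to pachytene of each of the 15400 tested genes in the KO-labelled libraries, on the spike-in scale (horizontal) against the share scale (vertical). Red points are the 2881 genes higher on both scales, blue points the 436 lower on both, and open circles mark X-linked genes, which lie mostly at the lower left.

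The most abundant transcripts changed with the stage. In LZ libraries the 10 most abundant entries by mean share were the ribosomal RNA precursor Rn45s, Rps28, Rpl41, Tmsb10, Rpl38, Fabp9, Gm9846, Mir703, Snord104 and Rps29. In pachytene libraries they were Fabp9, Meig1, Ldhc, Cox8c, Tmsb10, Calm2, Gm3925, Serf1, Rpl41 and Gstm5. Ribosomal protein genes made 4 of the 10 in LZ and 1 of the 10 in pachytene.

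Fabp9, a fatty acid-binding protein of germ cells, went from 5206, 5312 and 4997 ppm to 14605, 13725 and 15040 ppm. It held the first place in pachytene, and its share rose by 1.48 on the log2 scale (SE 0.16, adjusted p = 1.12e-05). Meig1, needed to build the sperm tail, went from 4438, 4264 and 3714 ppm to 12414, 10359 and 11185 ppm (log2 change 1.45, SE 0.12, adjusted p = 2.23e-06). Cox8c, the testis form of a cytochrome oxidase subunit, went from 2326, 2391 and 2145 ppm to 8192, 7504 and 8342 ppm (log2 change 1.81, SE 0.18, adjusted p = 5.56e-06). None of these 3 genes overlapped between the stages. Rn45s had the opposite course, from 12694, 8997 and 13741 ppm to 1807, 1338 and 1396 ppm (log2 change -2.95, SE 0.46, adjusted p = 0.000188), while its spike-in change of 0.64 did not pass (adjusted p = 0.240).

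Most genes of the list of pachytene genes and A-MYB targets rose. Which of its members A-MYB controls was not tested. Of 41 listed genes, all tested, 32 rose and 0 fell, against 18.7% and 2.83% of all genes, and the other 9 include 5 with a lower share. The median share change was 1.36, against -0.42 for all genes. Mybl1 itself, named outside the rule, measured 2.27, 2.42 and 4.62 in LZ and 38.2, 41.0 and 35.9 in pachytene libraries, higher on the spike-in scale (log2 change 3.31, adjusted p = 1.32e-07). Its share of 5.07 to 9.02 ppm in LZ overlapped the 5.70 to 7.46 ppm in pachytene and was not called (log2 change 0.09, SE 0.29, adjusted p = 0.805).

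Ldhc, the lactate dehydrogenase of germ cells and sperm, measured 1240, 1066 and 1078 in LZ and 67232, 52294 and 41931 in pachytene libraries on the spike-in scale. All pachytene values were far above the LZ values, and the share rose by 1.95 (SE 0.13, adjusted p = 4.98e-07). Spag6, a protein of the axoneme, measured 36.8, 35.2 and 27.1 in LZ and 2524, 2155 and 1499 in pachytene libraries. Its share rose by 2.33 (SE 0.26, adjusted p = 1.35e-05). Tdrd6, a Tudor protein of the chromatoid body, went from 14.1, 12.0 and 9.61 to 780, 651 and 444, and its share rose by 2.05 (SE 0.25, adjusted p = 2.76e-05). The transcription factor gene Ovol2 went from 10.2, 6.80 and 2.70 to 473, 415 and 161 (share change 2.08, SE 0.54, adjusted p = 0.00566). All 4 genes were separated between the stages in every library on both scales.

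The promoter windows of Ldhc and Spag6 show the MYB core in members of this list. Windows ran from 250 bases before to 50 bases after the annotated start and were read from RefSeq on GRCm38.p6, a later build than the mm9 of the values, so they were matched to genes by symbol. Capitals mark the MYB core, whose letters are AACNGTT and which reads the same on both strands. The Ldhc window, at chr7:46861013-46861312 on the plus strand, holds 2 matches that begin 27 and 7 bases before the start. The Spag6 window, at chr2:18698772-18699071 on the plus strand, holds 1 match that begins 76 bases before it.
Ldhc: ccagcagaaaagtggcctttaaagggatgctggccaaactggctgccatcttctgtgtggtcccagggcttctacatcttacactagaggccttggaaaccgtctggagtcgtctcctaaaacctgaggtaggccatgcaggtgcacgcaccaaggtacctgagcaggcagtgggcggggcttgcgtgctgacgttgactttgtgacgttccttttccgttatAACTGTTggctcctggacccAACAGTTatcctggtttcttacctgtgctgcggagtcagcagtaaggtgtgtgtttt
Spag6: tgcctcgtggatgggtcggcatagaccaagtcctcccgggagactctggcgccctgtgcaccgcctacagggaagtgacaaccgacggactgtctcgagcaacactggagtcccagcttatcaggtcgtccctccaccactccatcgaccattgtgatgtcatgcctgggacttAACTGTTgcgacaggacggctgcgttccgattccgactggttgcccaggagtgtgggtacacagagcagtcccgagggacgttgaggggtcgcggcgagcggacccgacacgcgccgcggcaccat
In all 32851 windows of the table the MYB core occurred in 4.45%. The other shares are counted by gene, with a match in any of its windows. The MYB core occurred in 5 of the 33 genes matched to the pachytene and A-MYB list (15.2%). In the piRNA pathway list it occurred in 0 of 21 matched genes. It occurred in 5.39% of 2281 matched genes that rose, 3.68% of 353 that fell and 4.45% of 12131 matched tested genes. The RFX core GTTGCC, searched on both strands, occurred in 17.7% of the genes that rose, 9.92% of those that fell and 15.4% of 12131 matched tested genes. Its first 3 letters are the last 3 of the MYB core, so matches of the pair can overlap. The cAMP response element TGACGTCA occurred in 3.16% of those that rose, 2.27% of those that fell and 3.31% of the tested genes. These shares are descriptions and carry no test.

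The piRNA pathway shared in this rise. Of 28 tested genes 14 rose and 1 fell, with a median share change of 0.34. The list holds Piwil1 and Tdrd6, described above. Tdrd5, another Tudor protein, measured 21.1, 14.4 and 25.5 in LZ and 723, 702 and 618 in pachytene libraries, without overlap, and its share rose by 1.48 (SE 0.26, adjusted p = 0.000394). The member that fell was Tex15, which acts in recombination and in piRNA-directed silencing. It measured 18.8, 20.9 and 22.4 in LZ and 2.57, 5.09 and 6.95 in pachytene libraries (share change -4.60, SE 0.25, adjusted p = 1.51e-07).

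Transcription factors of spermatogenesis moved in both directions. Of 31 tested, 11 rose and 7 fell. The genes that rose included Tcfl5, Crem, Rfx2, Ovol1 and Hsf5, factors known from meiosis and early spermatids. Those that fell included Sohlh1 and Sohlh2, factors of differentiating spermatogonia, and Dmrt1, which controls entry into meiosis. Sohlh2 measured 19.4, 18.4 and 20.03 in LZ and 1.83, 5.71 and 9.37 in pachytene libraries, and Dmrt1 measured 31.4, 28.6 and 46.3 against 2.15, 6.80 and 12.3. Neither gene overlapped between the stages. Without pachytene replicate 1 the spike-in change of Sohlh1 was -0.86 in place of -1.64 and still called (adjusted p = 0.0239). Taf7l, an X-linked TFIID subunit, went from 99.3, 129 and 144 to 4.52, 26.1 and 40.5 (share change -5.88, SE 0.46, adjusted p = 1.2e-06).

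Genes of leptotene and zygotene were lower in pachytene by share. Of 30 tested list members 26 had a lower share, against 41.1% of all genes, while 12 fell on both scales and 1, Spo11, rose. The median change was -2.96 on the share scale and -0.11 on the spike-in scale. Prss50, a testis protease, measured 199, 275 and 300 in LZ and 8.61, 25.4 and 32.1 in pachytene libraries. It was separated by stage in every library, and its share fell by 6.89 on the log2 scale (SE 0.34, adjusted p = 9.58e-08). Dmc1, the meiotic recombinase that pairs broken ends with the homolog, went from 36.3, 46.4 and 44.5 to 3.45, 5.60 and 10.8 (share change -5.40, SE 0.24, adjusted p = 9.58e-08). Rhox13 and Esx1, X-linked members described below, had share changes between those of Prss50 and Dmc1. The Sertoli and spermatogonia lists given below also had lower shares in pachytene, 10.3 and 7.80 times less on average, and their part in these changes was not tested.

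The Prss50 window is shown because this gene fell most by share among the autosomal members of the list and because it holds the STRA8 motif CNCCTCAG, searched on both strands. The window lies at chr9:110857714-110858013 on the plus strand. Capitals mark the match, which is on the opposite strand and begins 164 bases before the start.
Prss50: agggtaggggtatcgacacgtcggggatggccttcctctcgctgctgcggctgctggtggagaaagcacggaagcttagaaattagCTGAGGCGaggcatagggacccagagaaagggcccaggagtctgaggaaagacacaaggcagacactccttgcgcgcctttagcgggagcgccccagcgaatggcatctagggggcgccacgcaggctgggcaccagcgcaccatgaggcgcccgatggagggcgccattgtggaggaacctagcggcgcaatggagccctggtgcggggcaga
Counted by gene, with a match in any of its windows, the STRA8 motif occurred in 5 of 26 matched leptotene and zygotene genes (19.2%). It occurred in 11.9% of the genes that fell, 9.82% of those that rose and 11.0% of the 12131 matched tested genes. Counted by single window, it occurred in 7.94% of all windows of the table, which is not a like measure.

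Genes of recombination moved in both directions. Of 37 genes of break formation and repair 5 rose and 3 fell, and 25 had a lower share. Prdm9, the methyltransferase that marks hotspots, measured 5.83, 8.43 and 10.1 in LZ and 1.20, 2.56 and 4.02 in pachytene libraries. Mnd1, a partner of DMC1, measured 43.6, 49.0 and 33.1 against 20.5, 20.8 and 25.8. Both fell, with share changes of -3.60 (SE 0.22, adjusted p = 2.89e-07) and -4.17 (SE 0.25, adjusted p = 2.32e-07).

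Psmc3ip (HOP2), the partner of MND1 in a heterodimer, had the opposite course. It measured 125, 182 and 162 in LZ and 4973, 4243 and 3829 in pachytene libraries (share change 1.21, SE 0.15, adjusted p = 2.98e-05). Spo11, which makes the breaks and is named outside the rule, measured 50.7, 51.5 and 61.2 against 1325, 1179 and 965 (share change 0.80, SE 0.22, adjusted p = 0.00699). Both genes were higher in pachytene in every library on both scales.

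Among 17 crossover genes 4 rose (Mlh3, Cntd1, Slx4 and 1700102P08Rik) and 2 fell (Tex11 and Tex15), with a median share change of 0.03. Slx4, a scaffold of nucleases, measured 3.70, 3.18 and 2.87 in LZ and 149, 136 and 80.2 in pachytene libraries (share change 1.46, SE 0.28, adjusted p = 0.000894). Tex11, an X-linked gene needed for crossovers, went from 28.8, 30.7 and 37.8 to 0.321, 5.85 and 6.60 (share change -5.34, SE 0.31, adjusted p = 2.21e-07).

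The synaptonemal complex and axis list had a lower share in 17 of 24 genes, with 1 that rose and 2 that fell. Sycp3, the axis protein used to stain meiotic chromosomes and named outside the rule, was among the most abundant, at 1099, 1881 and 1609 in LZ and 7038, 7127 and 7333 in pachytene libraries. It was called higher on the spike-in scale and lower by share (3212 ± 696 to 1269 ± 239 ppm, SD, n = 3), so its direction depends on the scale. The meiotic cohesin gene Rad21l measured 2.45, 5.29 and 3.32 in LZ and was listed at 0 in all 3 pachytene libraries. Syce1, a central element protein, rose from 190, 216 and 204 to 6874, 6418 and 4739 (share change 1.27, SE 0.19, adjusted p = 0.000111).

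The R-loop factors, the family of the targeted gene, had 7 of 40 genes that rose and 0 that fell, close to the background on the higher side. A lower share was called for 24 of the 40, against 41.1% of all genes, and the median share change was -0.74, against -0.42. Their summed share was 0.306 ± 0.00371% in LZ and 0.307 ± 0.00766% in pachytene libraries (SD, n = 3, exact permutation p = 0.8). Rnaseh2a, the catalytic subunit of RNase H2, measured 71.0, 58.3 and 41.4 in LZ and 2165, 1764 and 989 in pachytene libraries. It was the member of the RNase H family that rose (share change 1.20, SE 0.24, adjusted p = 0.000983). Thoc7, of the THO complex that packages nascent RNA, measured 113, 160 and 136 against 4709, 4066 and 3607 (share change 1.33, SE 0.15, adjusted p = 2.02e-05). Tdrd3, Thoc5, Thoc6 and Bub3 were among the other genes of the list that rose.

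Few genes of the damage and stress lists rose or fell on both scales. A lower share was called for 17 of 29 genes of DNA damage signalling and 17 of 26 p53 targets and apoptosis genes. The background for a lower share was 41.1% of all genes. For immediate early and stress genes the count was 13 of 28, close to that background. In DNA damage signalling 1 of 29 genes rose and 1 fell (the X-linked Scml2), and among p53 targets and apoptosis genes 2 of 26 rose (Bak1 and Bcl2l1) and 1 fell. Bcl2l1, which protects from apoptosis, rose (share 34.6 ± 3.63 to 58.6 ± 4.57 ppm, SD, n = 3, adjusted p = 0.00225), and the p53 target Phlda3 was the member that fell. Of 28 immediate early and stress genes 2 rose, Ddit3 and Dnajb1. Ddit3, a transcription factor of the integrated stress response, measured 44.7, 50.1 and 56.1 in LZ and 2488, 2157 and 1575 in pachytene libraries (share change 1.74, SE 0.15, adjusted p = 2.46e-06).

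Genes of replication had mostly lower shares. Of 45 tested, 27 had a lower share, 7 fell and 5 rose. Mcm2, of the replicative helicase, measured 12.8, 7.62 and 14.8 in LZ and 0.155, 3.69 and 3.69 in pachytene libraries. Fen1, the flap endonuclease, measured 11.0, 14.5 and 20.1 against 4.62, 3.88 and 7.202. The stages did not overlap for either gene, and their shares fell by 4.12 and 4.07 on the log2 scale.

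Of 34 genes of G2/M and metaphase I, 9 rose and 2 fell. Aurkc, the germline Aurora kinase, went from 17.3, 19.5 and 9.47 to 1016, 708 and 492 (share change 1.95, SE 0.28, adjusted p = 9.41e-05). Ccnb3, the X-linked cyclin B3 of early prophase, went from 10.3, 8.87 and 12.2 to 0.900, 1.28 and 1.72 (share change -4.22, SE 0.22, adjusted p = 1.39e-07). Ccna1, described above, belongs to the same list.

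Energy and translation genes took different courses. Of 78 nuclear genes of oxidative phosphorylation 26 rose and 0 fell, while 24 had a lower share. Their median share change was 0.0051. Among the genes that rose, the testis-specific forms Cox8c, Cyct and Cox6b2 had the largest share changes, 1.81, 1.33 and 1.23. The largest share changes of the list were downward, with Cycs at -3.51 and Ndufa1 at -3.45. Cyct, the testis cytochrome c, measured 396, 395 and 391 ppm in LZ and 939, 908 and 1148 ppm in pachytene libraries. Cytosolic ribosomal protein genes had a lower share in 67 of 84, and their summed share went from 12.7 ± 0.387% to 8.09 ± 0.685% (SD, n = 3, exact permutation p = 0.1). The 3 ribosomal protein genes that rose were Rpl10l, Rpl22l1 and Rpl39l, copies or relatives of widely expressed genes. Rpl10l went from 362, 415 and 365 ppm to 564, 565 and 587 ppm (log2 change 0.59, SE 0.12, adjusted p = 0.00128). The gene that fell was the X-linked Rpl36a, from 559, 463 and 507 ppm to 19.7, 19.3 and 28.6 ppm.

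**Figure D3:**
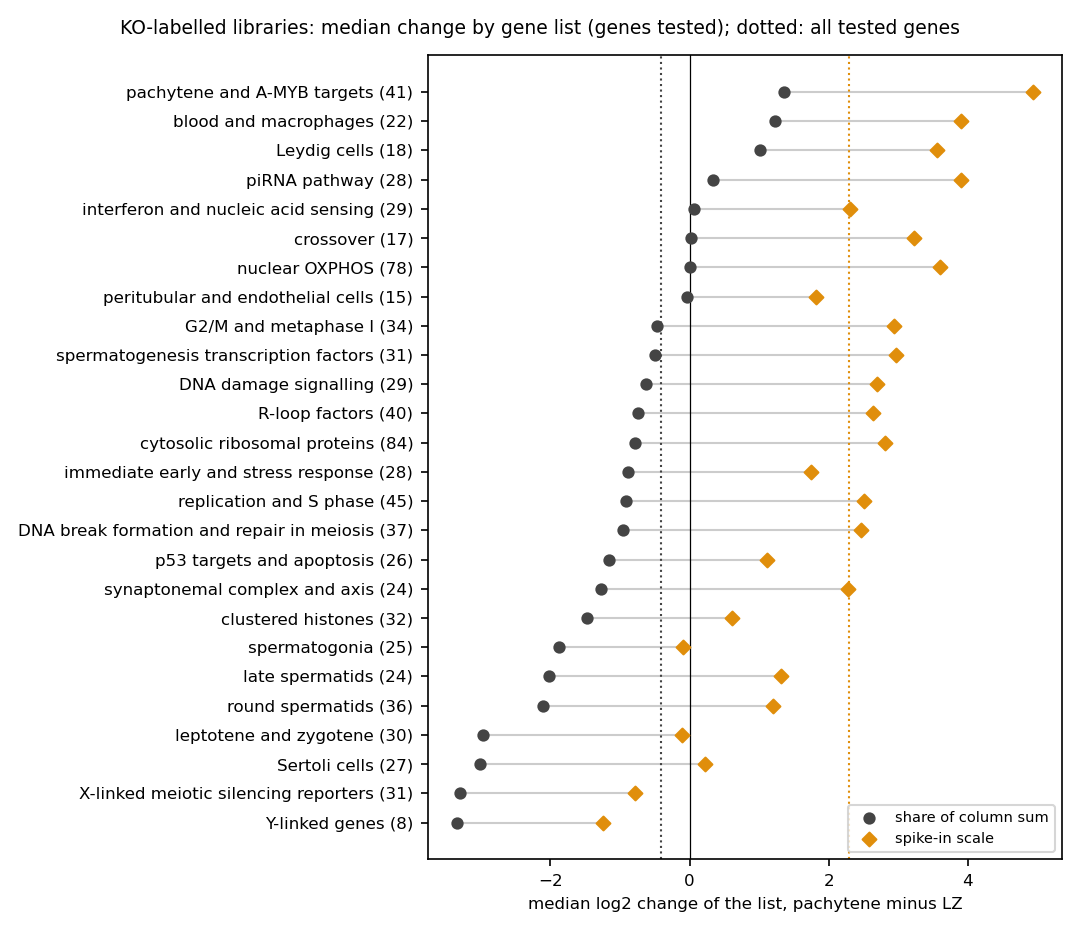
Median log2 change from LZ to pachytene of the tested genes of each list in the KO-labelled libraries, on the share scale (circles) and the spike-in scale (diamonds), with the medians of all tested genes as dotted lines at -0.42 and 2.29. The pachytene and A-MYB list has the highest medians and the X-linked and Y-linked lists the lowest.

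The X chromosome stood apart from every autosome. Of 612 tested X-linked genes 481 had a lower share in pachytene, 176 fell and 4 rose. On the 19 autosomes together, 251 of 14644 genes fell (1.71%) and 2859 rose (19.5%). X-linked genes were 40.4% of the genes that fell and 3.97% of all tested genes. The X-linked median lay 2.49 below the autosomal median on the spike-in scale and 1.70 below it on the share scale, while single autosomes lay between -0.14 and 0.10 of it on the share scale. This distance depended on how low values were treated, and it was -3.06 with a pseudocount of 0.1 and -1.70 with a pseudocount of 5.

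The X-linked share of each column was 1.85, 2.40 and 2.38% in KO-labelled LZ and 0.183, 0.240 and 0.359% in KO-labelled pachytene libraries. The ranges were far apart, and the LZ mean was 8.48 times the pachytene mean (exact permutation p = 0.1). The same share in WT libraries was 1.68 to 2.06% in LZ and 0.617 to 0.769% in pachytene, above all KO-labelled pachytene values. The 8 tested genes assigned to the Y chromosome all had a lower share, and 5 fell.

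**Figure D4:**
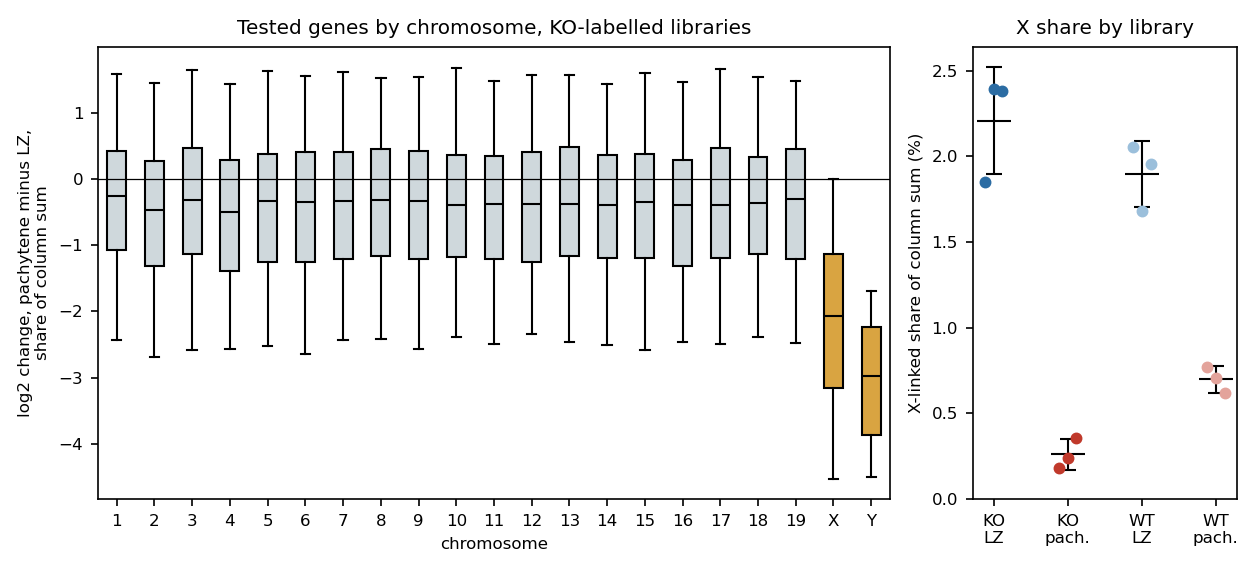
Left, share-scale log2 change from LZ to pachytene of tested genes by chromosome in the KO-labelled libraries (box, quartiles with the median; whiskers, percentiles 5 and 95). Right, X-linked share of the column sum in each of the 12 libraries (points) with mean and SD, which is 1.85 to 2.40% in KO-labelled LZ and 0.183 to 0.359% in KO-labelled pachytene libraries.

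By share, the small nucleolar RNA gene Snora70 had the lowest fitted change of the X-linked genes named by the rule, from 31.5, 44.9 and 74.5 in LZ to a listed 0 in all pachytene libraries. The rule that named these genes required that the stages not overlap, so their separation by stage is no result. Esx1, a homeobox gene, measured 19.5, 21.4 and 53.2 in LZ and 0, 0.399 and 0.669 in pachytene libraries (share change -5.83, SE 0.39, adjusted p = 4.26e-07). Rhox13, another homeobox gene, measured 46.5, 60.2 and 65.2 against 0, 7.42 and 9.79 (share change -5.99, SE 0.32, adjusted p = 1.5e-07). Siah1b, a ubiquitin ligase gene, measured 30.8, 27.0 and 34.99 against 0.649, 1.84 and 7.43 (share change -5.42, SE 0.27, adjusted p = 1.06e-07). The lowest value of Esx1, Rhox13 and Siah1b was in pachytene replicate 1.

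Rbmx2 and Tktl1 followed the same course, with share changes of -5.66 and -5.43. In the list of 31 X-linked reporters of meiotic silencing 15 fell, 0 rose and 30 had a lower share. On the Y chromosome, Eif2s3y, a translation factor gene needed by spermatogonia, measured 49.2, 40.5 and 71.1 in LZ and 21.3, 19.9 and 26.3 in pachytene libraries. Ube1y1, a ubiquitin-activating enzyme gene, measured 24.1, 20.9 and 24.8 against 1.68, 4.42 and 9.15. Both fell without overlap.

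The 4 X-linked genes that rose were low in level. They were Gpr34, Cybb, 4930408F14Rik and Gm2837, of which the last 3 are named outside the rule because they complete the count. Gpr34 was listed at 0 in all LZ libraries and measured 1.16, 6.24 and 8.27 in pachytene libraries. Cybb, an oxidase subunit of phagocytes, measured 0.0496, 0 and 0 against 2.69, 3.06 and 4.21. The share calls of Gpr34 were lost without pachytene replicate 2 (0.84, adjusted p = 0.063) or 3 (0.64, adjusted p = 0.087). Those of 4930408F14Rik and Gm2837 were lost without LZ replicate 2 or without pachytene replicate 2 or 3, with adjusted p of 0.0552 to 0.0995.

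Retrocopies on autosomes, which carry the function of an X-linked parent through meiosis, were compared with their parents in 11 pairs. The X-linked parent had a lower share in all 11 pairs and fell in 4, while the autosomal copy rose in 5 and had a lower share in 2. The log2 ratio of copy to parent shifted toward the copy in all 11, and the stages did not overlap in 10. Each of those 10 gave an exact permutation p of 0.1, the smallest possible. The exception was Ubl4 and Ubl4b, with a shift of 0.67 (exact permutation p = 0.7). The X-linked median change lay 2.49 below the autosomal one on the spike-in scale. A ratio of any autosomal to any X-linked gene would thus tend to shift toward the autosomal gene. Whether the copies differ from other autosomal genes was not tested.

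Pdha1, the X-linked pyruvate dehydrogenase subunit, made 6.66, 10.4 and 9.40 ppm in LZ and 0.600, 0.565 and 0.684 ppm in pachytene libraries. Its copy Pdha2 made 122, 91.5 and 142 ppm and then 293, 309 and 359 ppm. The log2 ratio of copy to parent went from 3.46 ± 0.476 to 8.66 ± 0.04997 (SD, n = 3). The centrin pair Cetn2 and Cetn1 went from 2.68 ± 0.213 to 8.95 ± 0.993, and Cstf2 and Cstf2t, of polyadenylation, from -0.02 ± 0.120 to 5.27 ± 0.533. The transketolase-like pair Tktl1 and Tktl2 changed sign, from -2.66 ± 0.108 to 3.99 ± 1.95. In ribosomes, Rpl39 and Rpl39l went from 0.31 ± 0.248 to 4.92 ± 0.427, and Rpl10 and Rpl10l from -0.08 ± 0.103 to 3.78 ± 0.355. Parent and copy are similar in sequence, so fragments may have been assigned to the wrong member of a pair. How the authors' counting treated such fragments is not given in the sources used here.

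Markers of other cells were present in the sorted cells and moved with stage. The Sertoli list, of the supporting cells of the tubule, made 0.452, 0.863 and 0.921% of the KO-labelled LZ libraries and 0.0618, 0.0599 and 0.0949% of the pachytene libraries. That is 10.3 times more in LZ on average (exact permutation p = 0.1), and 26 of 27 tested members had a lower share in pachytene. On the spike-in scale their median change was 0.22, and 0 of the 29 listed genes in the table were at 0 throughout either stage. Of the 27 tested members 1, Trf, rose (share change 1.56) and 1, Dmrt1, fell. The share call of Trf was lost without LZ replicate 3 (adjusted p = 0.0533) or pachytene replicate 2 (adjusted p = 0.0553). Clu, an abundant Sertoli product named outside the rule, measured 247, 401 and 582 in LZ and 490, 458 and 420 in pachytene libraries, which overlap. Sox9, the defining factor, measured 2.03, 3.40 and 5.56 against 2.61, 3.81 and 4.62, which overlap too. The part of these cells in the lower shares of other genes was not tested. A share also depends on the column sum, whose mean was 12.2 times as large in pachytene as in LZ. In bulk samples, the number of cells of a type and the RNA per cell cannot be told apart.

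Leydig and immune markers had the opposite course. The Leydig list made 0.0541 to 0.0683% of the LZ libraries and 0.0858 to 0.149% of the pachytene libraries. Of its 18 tested members 10 rose and 0 fell, while 4 had a lower share. Insl3, a hormone of Leydig cells, measured 68.0, 2.04 and 1.74 in LZ and 4710, 4475 and 828 in pachytene libraries. LZ replicate 1 was far above the other LZ libraries and still below all pachytene libraries. Hsd3b6, a steroid-making enzyme, measured 0.0353, 0 and 0.0833 against 169, 162 and 130, with a share change of 4.68 (SE 0.34, adjusted p = 6.86e-07). Cyp11a1, the defining first enzyme of steroid synthesis and named outside the rule, measured 7.18, 0 and 0 against 192, 163 and 103.

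Of 22 tested genes of blood and macrophages 15 rose and 1 fell. The gene that fell was the T cell gene Cd3e, whereas Cd3d and Cd3g, also T cell genes, were among those that rose. The list made 0.00598 to 0.00731% in LZ and 0.0181 to 0.0386% in pachytene libraries. Lyz2, the lysozyme of macrophages, measured 0.727, 0.423 and 1.01 in LZ and 195, 352 and 250 in pachytene libraries (share change 4.22, SE 0.77, adjusted p = 0.000583). The defining gene Csf1r, named outside the rule, measured at most 0.109 in LZ and 6.11 to 10.3 in pachytene libraries. In the interferon and nucleic acid sensing list 11 of 29 genes rose and 0 fell, among them Ifitm3, from 0, 3.25 and 1.65 to 163, 173 and 168. The summed share of that list was 0.0143 to 0.0155% in LZ and 0.0138 to 0.0172% in pachytene libraries. The part of immune cells in the interferon genes was not tested. The peritubular and endothelial list, at 0.00523% in pachytene and 0.00752% in LZ on average, had 1 gene of 15 that rose (Col3a1) and 0 that fell. The share call of Col3a1, a fibrillar collagen gene, was lost without LZ replicate 1 or 2 or pachytene replicate 2 or 3, with adjusted p of 0.0563 to 0.155.

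Genes listed for germ cell types other than those sorted were also detected. The spermatogonia list made 0.0807 to 0.102% of the LZ libraries and 0.00761 to 0.0158% of the pachytene libraries, and 8 of 25 tested members fell while 1, Id4, rose. Uchl1, a marker of spermatogonia, measured 151, 127 and 151 against 27.0, 56.7 and 67.4. Zbtb16, Gfra1, Nanos2 and Lin28a, members of the list named outside the rule, averaged 0.790, 0.903, 0.512 and 0.710 in KO-labelled LZ. None of them rose or fell, and whether spermatogonia were present was not tested. The late spermatid list made 1.91, 0.540 and 0.847% of the LZ libraries and 1.14 to 1.26% of the pachytene libraries. LZ replicate 1 held the most, with the protamine gene Prm1 (named outside the rule) at 2581 against 385 and 918 in the other LZ libraries. Prm1 ran from 764 to 4391 in pachytene libraries, which overlaps. Of 36 round spermatid genes 6 rose, and of 24 late spermatid genes 4 rose, with 0 that fell in either list. In the same lists 23 and 13 genes had a lower share. The genes that rose included Dpy19l2, Spata16 and Cmtm2a, whose stages did not overlap. Dpy19l2, of the acrosome, went from 11.0, 11.9 and 5.78 to 622, 597 and 396. Without LZ replicate 1, 11747 genes were higher and 436 lower on the spike-in scale, and 2956 were higher and 5998 lower on the share scale.

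**Figure D5:**
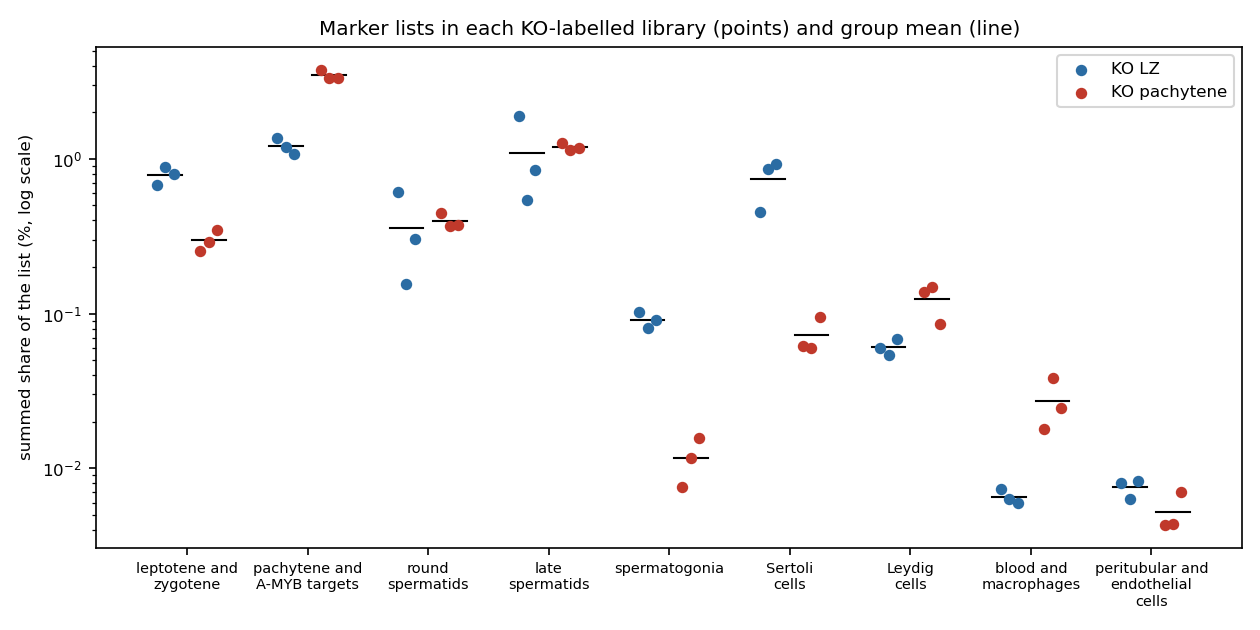
Summed share of the column taken by 9 marker lists in each KO-labelled library (points; line, group mean; log scale). Sertoli and spermatogonia lists are higher in LZ, Leydig and blood lists are higher in pachytene, and LZ replicate 1 has the highest spermatid shares of the LZ libraries.

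Short non-coding RNAs were among the 10 highest and the 10 lowest spike-in changes, counted over annotated genes called on both scales whose higher stage averaged 5 or more and whose stages did not overlap. Snord100, a small nucleolar RNA, was listed at 0 in the 3 LZ libraries and at 2137, 2431 and 4080 in the pachytene libraries. Mir1894 was likewise at 0 in LZ and at 1497, 851 and 2143 in pachytene. In the other direction Snord55 went from 212, 339 and 125 to 0 in all pachytene libraries, and Mir669k from 56.0, 59.8 and 52.9 to 0. FPKM divides by transcript length, so few fragments give a large value for such short genes, and the polyadenylated RNA used here is not made to capture them. The share call of a further microRNA gene, Mir719, was lost without any of 5 of the 6 libraries, with adjusted p of 0.0699 to 0.119. Among protein-coding genes, Fabp3, a fatty acid-binding protein of muscle, measured 13.4, 4.83 and 5.34 in LZ and 1327, 1050 and 732 in pachytene libraries. The histone gene Hist1h4m measured 6.45, 9.58 and 8.61 in LZ and was at 0 in every pachytene library. Of 32 tested clustered histone genes 3 rose and 4 fell.

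The stage change of the WT libraries, which share no library with the KO-labelled ones, ran in the same direction for most genes. Across the 15400 genes the share changes had a Pearson correlation of 0.813, a description over genes, which are not independent replicates. Of the 2881 genes that rose, 1694 also rose in WT, which is 58.8% of the KO-labelled set and 80.6% of the 2103 that rose in WT. Of the 436 that fell, 61 also fell in WT, which is 13.99% of the KO-labelled set and 82.4% of the 74 that fell in WT. The median spike-in change of all genes was 1.64 in WT.

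The test of the difference between the stage changes depended on the scale. On the spike-in scale 5381 genes had a higher change in KO-labelled than in WT libraries (34.9%) and 538 a lower one (3.49%). On the share scale these were 91 (0.591%) and 861 (5.59%), and on both scales 89 (0.578%) and 348 (2.26%). The spike-in counts fell to 3397 and 352 without KO-labelled pachytene replicate 1, and the lower count fell to 332 without WT LZ replicate 2.

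The X chromosome held 117 of the 348 genes that were lower on both scales, 19.1% of the X-linked genes tested, against 1.55% of autosomal genes. Siah1b changed by -5.42 by share in KO-labelled and -2.37 in WT libraries, a difference of -3.05 (SE 0.38, adjusted p = 0.00672). In the list of X-linked reporters the difference was lower on both scales for 11 of 31 genes. Of the spermatogonia list 7 of 25 and of the Sertoli list 6 of 27 were lower in the same test. So were 4 of 15 genes of the peritubular and endothelial list. Dmrt1 belongs to the spermatogonia and Sertoli lists. Its share change was -5.10 in KO-labelled and -2.33 in WT libraries, a difference of -2.77 (SE 0.50, adjusted p = 0.0116). The Sertoli list made 0.346 to 0.502% of WT LZ and 0.226 to 0.297% of WT pachytene libraries, so it moved with this difference, and its part in it was not tested.

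In the higher direction, 4 of 41 genes in the A-MYB programme had a larger change in KO-labelled libraries on both scales. Crisp2, a protein of the sperm head and tail, went from 226, 203 and 165 to 11931, 10025 and 7713 on the spike-in scale. Its share changed by 2.03 in KO-labelled and 0.93 in WT libraries, a difference of 1.10 (SE 0.26, adjusted p = 0.0330). For Ldhc the difference was 0.74 (SE 0.19, adjusted p = 0.0413). For Piwil1 it was -0.58 (SE 0.40, adjusted p = 0.420) and for Rnaseh1 -0.38 (SE 0.34, adjusted p = 0.550), neither of which passed.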

How the data were processed

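Per the submitters' processing notes, the authors used TopHat2 2.1.1, Cufflinks 2.2.1 and mouse mm9. The authors deposited FPKM values, 1 per gene and library, which the table's name says were normalised by ERCC RNA. The formula, annotation and filters are not given in the sources used here. The table had 4 columns without a name, which were not used, and 0 ERCC rows. Fragment totals are not given, so the absolute depth of each library is unknown and no interval or limit that needs it is given.

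Genes that reached 1 in 3 or more of 12 libraries were kept (15400 of 23235). Values, or ppm of the column sum, were transformed as log2(value + 1), so fold changes of low genes are understated. Limma 3.58.1 (R 4.3.3), with 1 mean per group over all 12 libraries and a variance trend, gave log2 changes, standard errors and two-sided p-values with Benjamini-Hochberg adjustment over all tested genes, called under 0.05. Column sums and summed shares were compared by exact two-sided permutation tests, 1 test per measure and with no adjustment.

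The genes, the 26 lists and the pairs were chosen with earlier results of these data known. Genes were named by rule: Rnaseh1 and the stage markers, the 10 highest and 10 lowest spike-in changes called on both scales (mean of at least 5 in the higher stage, no overlap between the stages, no predicted gene models) and 6 X-linked genes at each end likewise, the 10 most abundant at each stage, up to 4 members of each list called on both scales with the largest share change (or up to 2 by mean level where none was called), the 5 smallest p in each direction of the difference from WT, and the pairs. Genes said to be outside the rule, and list members that complete a count, were chosen after their values were seen. A further 9 listed symbols are not analysed here, and 1 further gene is not reported here. Chromosomes were matched by symbol for 22968 genes from RefSeq GRCm38.p6. Alternatives were other pseudocounts, filters, scalings and column sums, a constant variance prior, a replicate block, the 6 KO-labelled libraries alone, and each library left out.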

Additional observations from a re-analysis of the deposited data

Results flagged for a closer look

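Of 154 named genes that were tested, 31 had a stage change in KO-labelled libraries that differed from that in WT libraries in the same direction on both scales, by limma's test of the difference (adjusted p under 0.05 over all genes). The values below are that difference on the share scale, KO-labelled minus WT, in log2 units, with standard errors of 0.190 to 1.57 and adjusted p of 1.34e-06 to 0.0413. The difference was below 0 for 24 genes and above 0 for 7. Over all 15400 genes it was called lower on both scales for 2.26% and higher for 0.578%. Some of the named genes were picked for the smallest p of this difference or for lying on the X chromosome, so these counts are a description of the picked genes and no result about them.

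On the sex chromosomes the differences were Snora70 -5.20, Siah1b -3.05, Tktl1 -2.49, Mageb4 -2.86, Tex11 -2.47, Rpl36a -2.52 and Taf7l -2.88. They were further Ube1y1 -2.20, Eif2s3y -2.25, Bgn -2.77, Xlr3a -2.12, Pdha1 -1.99, Cetn2 -2.54 and Cstf2 -1.67. Each of these genes had a lower change in the KO-labelled libraries.

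On the autosomes the differences below 0 were Mir669k -6.75, Dmrt1 -2.77, Uchl1 -2.67, Tex15 -1.93, Rec8 -1.78, Mcm2 -2.03, Sohlh2 -2.33, Sohlh1 -2.27, Cml5 -1.68 and Rem1 -1.11. Germ cell genes of early stages, such as Dmrt1, Sohlh1, Sohlh2 and Rec8, were among them.

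The differences above 0 were Snord100 8.92, Ldhc 0.74, Cmtm2a 1.07, Ropn1l 0.77, Serpina1e 1.62, Crisp2 1.10 and 4930408F14Rik 2.45. Snord100 was listed at 0 in all KO-labelled LZ libraries, and its fitted difference depends on the pseudocount. Serpina1e and 4930408F14Rik were low in level, at most 26.4 and 17.2 in any KO-labelled library on the spike-in scale.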

How the results depend on the processing

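The counts depended most on the scaling. In place of 11830 genes higher and 436 lower on the spike-in scale, median-ratio scaling gave 4878 and 4506 and quantile normalisation 4941 and 4104, because both set the median change near 0. For the difference from WT, the higher count of 5381 was 91 on the share scale and 372 after median-ratio scaling, and the lower count of 538 was 861 on the share scale. The distance of the X-linked from the autosomal median, -2.49, was -3.06 with a pseudocount of 0.1, -1.70 with a pseudocount of 5, -1.70 without a filter, -3.09 with a filter of 5 and -1.70 on the share scale. Its direction was the same in each.

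Leaving out each library in turn gave 11440 to 11847 genes higher and 309 to 480 lower on the spike-in scale, and 2393 to 2956 higher and 5445 to 6727 lower on the share scale. The difference from WT had 3397 to 5917 higher and 332 to 719 lower, and the X-linked distance was -2.76 to -2.36. The ratio of column sums was 11.2 to 13.2 and the ratio of X-linked shares 7.38 to 10.4. With the replicate block there were 11944 higher and 439 lower on the spike-in scale, 2901 and 6501 on the share scale, and 4900 and 539 for the difference from WT. Deviations from the group means correlated by 0.0827, 0.259 and 0.141 between same-numbered libraries, not all over 0.1, and LZ replicate 1 correlated best with pachytene replicate 3 (0.157), so the numbers were not taken as pairing.

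Named genes changed sign on the spike-in scale after median-ratio scaling as follows, in log2 changes: Rnaseh1 -0.51, Rn45s -2.35, Rps28 -0.53, Gm9846 -0.87, Snord104 -0.84, Rps29 -0.35, Pgk1 -2.26, Ubl4 -2.35, Ubl4b -1.78, Rbmxl2 -0.48, Zfx -1.97, Rpl10 -2.66, Sycp3 -0.73, Prm1 -1.71, Tnp1 -1.55, Clu -2.75, Defb19 -2.53, Sox9 -2.22. After quantile normalisation they were Rnaseh1 -0.55, Rn45s -3.20, Rps28 -1.38, Rpl41 -0.52, Rpl38 -0.61, Gm9846 -1.67, Mir703 -0.28, Snord104 -1.59, Rps29 -1.06, Rem1 -0.038, Pgk1 -2.0002, Ubl4 -1.96, Ubl4b -1.65, Rbmxl2 -0.45, Zfx -1.35, Rpl10 -3.10, Sycp3 -1.48, Prm1 -2.41, Tnp1 -2.19, Clu -3.35, Defb19 -3.14, Sox9 -1.61. Leaving out 1 library gave ranges that cross 0 for the share changes of Bgn (-0.0085 to 0.46) and Mybl1 (-0.039 to 0.32) and for the spike-in changes of Clu (-0.087 to 0.53) and Sox9 (-0.22 to 0.33). These were not called with all libraries or where they changed sign, and the cause was not tested. Low genes in pachytene rest on few fragments, which limits what can be said of genes near 0 there.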
